A study of Mus musculus with 14 samples.

Results

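A set of 10 genes was followed through the irradiated mouse heart: the cytokine gene Tnf, its receptor genes Tnfrsf1a and Tnfrsf1b, the NF-kB subunit genes Nfkb1, Nfkb2, Rela and Relb, and the feedback genes Nfkbia, Tnfaip3 and Birc3. They were picked by gene symbol, with earlier results of these data known, and were 10 of the 54532 genes in the count table. All 10 were among the 16034 genes with enough counts to be tested. Cardiac tissue was taken from 14 wild-type (WT) male C57BL/6J mice, 1 library per mouse, 8 weeks old when irradiation was given. IRR_1d (n = 3) and IRR_6w (n = 4) had received 30 Gy of cobalt gamma rays to the front of the chest under anaesthesia, with lead over the rest of the body, and were sampled after 1 day and after 6 weeks. Control_1d (n = 3) and Control_6w (n = 4) were not irradiated and were sampled at the same times. Whether the controls were anaesthetised was not stated in the sources used here. The question was how this signalling route differed between irradiated and control hearts soon after the dose and weeks later.

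TNF is an inflammatory cytokine made above all by macrophages. It acts through a receptor found on most cell types, encoded by Tnfrsf1a, and through a second one encoded by Tnfrsf1b, which is found mainly on immune and endothelial cells. Receptor signalling activates the IkB kinase, which marks IkB-alpha (Nfkbia) for destruction and frees dimers of RelA (Rela) and the processed product of Nfkb1 to enter the nucleus. In the slower non-canonical route, the kinase encoded by Map3k14 drives processing of the Nfkb2 product, which pairs with RelB (Relb). NF-kB induces its own inhibitors, among them Nfkbia, the ubiquitin-editing enzyme gene Tnfaip3 (A20) and the ubiquitin ligase gene Birc3. In the heart, the route is known for switching on adhesion molecules in vessels and chemokines that draw in leukocytes.

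The feedback genes are textbook NF-kB targets, so the promoters were read for the kappaB site that NF-kB binds. RefSeq promoters of build GRCm38.p6 were at hand for 8 of the 10 members, with 11 start sites, and Nfkb1 and Relb had no entry. The 10-base kappaB consensus, searched on both strands, was found in 5 of the 11 promoters, which belonged to 3 members, Nfkb2, Nfkbia and Tnfaip3. Of these 5, 3 were promoters of Nfkb2, of which promoters 2 and 3 overlap and share 1 match, and promoter 2 of Tnfaip3 held none. Of all 32851 promoters of the same 300 bases, 8.46% held it. The 250 bases upstream of the start are shown for those 3 members, with matches in capitals, and for Tnfrsf1b, the member with the smallest p at 6 weeks, whose promoter held no match. A match is a description of the letters, and its absence says only that they are not in this window. Overlapping matches run together in the Nfkb2 sequence, where 1 palindromic stretch was matched on both strands. The stretches lay at chr12:55492648-55492897 on the minus strand (Nfkbia), chr10:19015411-19015660 on the minus strand (Tnfaip3), chr19:46304487-46304736 on the plus strand (Nfkb2) and chr4:145246871-145247120 on the minus strand (Tnfrsf1b).
Nfkbia: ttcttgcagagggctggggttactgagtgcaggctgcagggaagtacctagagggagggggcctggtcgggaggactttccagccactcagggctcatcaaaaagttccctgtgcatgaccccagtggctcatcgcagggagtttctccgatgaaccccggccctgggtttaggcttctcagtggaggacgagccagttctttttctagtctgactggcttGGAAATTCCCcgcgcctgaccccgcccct
Tnfaip3: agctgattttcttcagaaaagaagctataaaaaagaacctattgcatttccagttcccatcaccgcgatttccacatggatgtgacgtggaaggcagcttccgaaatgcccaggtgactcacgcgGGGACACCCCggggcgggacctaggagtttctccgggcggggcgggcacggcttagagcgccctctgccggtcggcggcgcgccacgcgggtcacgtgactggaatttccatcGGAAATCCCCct
Nfkb2: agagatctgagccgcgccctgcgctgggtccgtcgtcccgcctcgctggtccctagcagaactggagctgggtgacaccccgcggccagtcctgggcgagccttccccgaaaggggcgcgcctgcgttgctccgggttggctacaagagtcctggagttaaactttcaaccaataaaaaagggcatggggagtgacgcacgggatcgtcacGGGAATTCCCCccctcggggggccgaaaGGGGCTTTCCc
Tnfrsf1b: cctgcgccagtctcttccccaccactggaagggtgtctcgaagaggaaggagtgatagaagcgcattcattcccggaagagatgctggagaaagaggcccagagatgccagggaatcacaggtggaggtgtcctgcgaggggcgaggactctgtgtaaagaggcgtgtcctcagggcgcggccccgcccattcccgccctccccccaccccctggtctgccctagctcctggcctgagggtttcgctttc

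No member was called as changed by irradiation in edgeR's quasi-likelihood test, at 1 day or at 6 weeks, where a call needed both a fold change above 2 or below 0.5 and, after Benjamini-Hochberg adjustment across the tested genes, a p under 0.05. The background was low as well, since 4 of 16034 genes (0.0249%) were called in IRR_1d vs. Control_1d and 41 (0.256%) in IRR_6w vs. Control_6w. At 6 weeks, 3 of 10 members were higher in every irradiated heart than in every control heart, namely Tnfrsf1b, Relb and Tnfrsf1a, while 4.07% of all genes did so. DESeq2, run as an alternative, called 1 member at 6 weeks, Tnfrsf1b, and none at 1 day, and limma voom with sample quality weights called none in either comparison. Over all genes DESeq2 called 344 at 6 weeks (1.2% of the 28748 to which it gave a p) and 33 at 1 day, and limma voom 509 (3.17%) and 41. DESeq2 was run without the low-count filter that left 16034 genes for edgeR and limma voom. In bulk tissue, more cells of a type and more RNA per cell cannot be told apart, which holds for every value given here.

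Some libraries stood apart and touch the members' values. Totals ran from 13336746 to 16837265 counts, and TMM factors, which correct for composition, from 0.726 to 1.25. All 7 cardiomyocyte markers had counts in every library. Control_6w replicate 3 held a summed 2266 CPM (counts scaled to the TMM-corrected library total) of 5 thymocyte markers, against at most 36.7 in the other 13 libraries, and its cardiomyocyte markers summed to 4337 CPM against 19964 to 39053 in the other Control_6w hearts. IRR_6w replicate 1 held 355 CPM of lung epithelium markers and 2812 CPM of atrial markers, against at most 24.8 and 1166 CPM elsewhere. That 1166 CPM belonged to IRR_1d replicate 3, which also held 291 CPM of 3 brown fat markers, against at most 15.9 in the other 1-day hearts. At 6 weeks the same brown fat markers summed to 688 CPM in Control_6w replicate 3 and 939 CPM in IRR_6w replicate 1, against at most 21.3 in the others. For each library, genes were taken whose median over the other 13 libraries was 2 to 5 CPM. They had 0 counts unusually often in Control_1d replicate 1 (32.3%), IRR_6w replicate 3 (22.6%), IRR_6w replicate 4 (9.36%) and Control_6w replicate 1 (2.22%). The share elsewhere was at most 0.448%. Where values are given without 3 hearts, these are the first 3 of that list. The labels gave no batches, and the p-values measure the spread between mice.

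Levels of the members spanned a wide range, compared here per gene length as FPKM (counts divided by the deposited gene length and the TMM-scaled library total). In Control_6w the order was Nfkbia (29.0 ± 6.61, SD, n = 4), Tnfrsf1a (22.5 ± 2.87), Rela (18.6 ± 2.31), Nfkb1 (6.33 ± 0.672), Nfkb2 (5.97 ± 1.08), Tnfrsf1b (5.50 ± 1.47), Birc3 (3.77 ± 1.14), Relb (3.06 ± 0.497), Tnfaip3 (2.57 ± 3.01) and Tnf (0.252 ± 0.218). Neighbours in this order overlapped between hearts except at the step from Rela to Nfkb1 and the step from Tnfaip3 to Tnf. In IRR_6w the order opened with Tnfrsf1a (31.6 ± 3.81, SD, n = 4), Nfkbia (24.0 ± 5.33), Rela (15.7 ± 6.61) and Tnfrsf1b (11.4 ± 3.12), so that the gene of the second TNF receptor stood behind only 3 members. Tnfrsf1b overlapped there with Rela above it and with Nfkb2 (7.77 ± 1.597) below it. The cytokine gene was the least abundant member in all 4 groups.

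**Figure D1:**
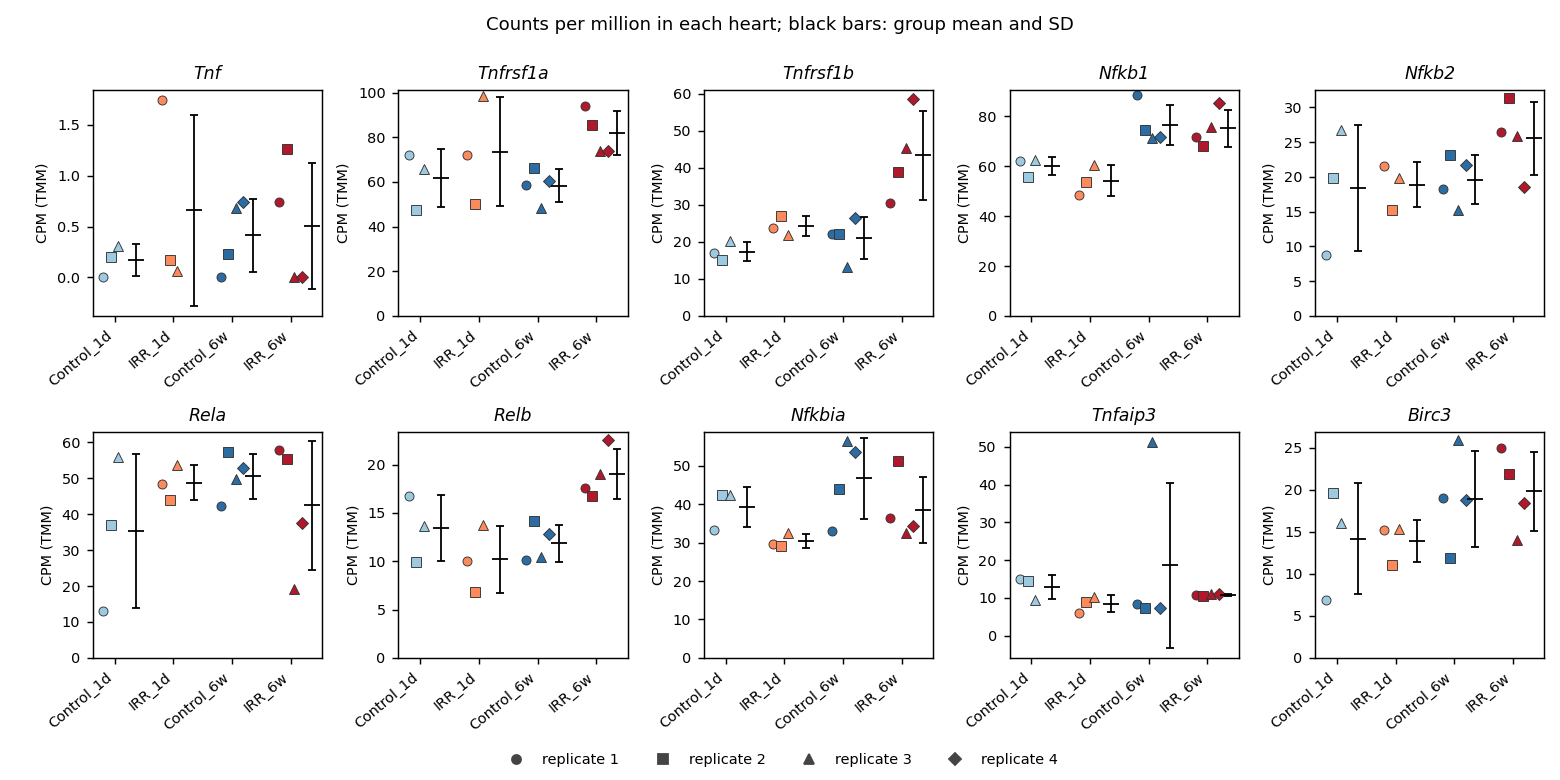
CPM with TMM scaling (vertical axes, starting at or below 0) of each member in every heart, by group. Each point is 1 mouse, its shape gives the replicate number, and the black bars give the group mean and 1 SD. Tnfrsf1b and Relb stood higher in all 4 IRR_6w hearts than in any Control_6w heart, and 1 Control_6w heart held 51.2 CPM of Tnfaip3.

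Tnf (ENSMUSG00000024401, chr17:35199381-35202007, minus strand) was close to the detection limit. Its raw counts were 0, 2 and 4 in Control_1d and 27, 2 and 1 in IRR_1d, in the order of the replicates. They were 0, 3, 12 and 11 in Control_6w and 13, 21, 0 and 0 in IRR_6w. The groups overlapped at both times, and a single heart, IRR_1d replicate 1, carried nearly all counts of its group. By counting alone, 0 counts allow up to 3, a limit that does not cover the loss of weak genes in some libraries, and the 4 hearts with 0 Tnf counts were the 4 named above for many genes at 0 counts. The log2 fold change was 1.94 (SE 1.96) at 1 day and 0.26 (SE 1.61) at 6 weeks, with edgeR adjusted p of 1 and 0.976. Without IRR_1d replicate 1 the value at 1 day was -0.49. The value at 6 weeks was -0.72 without IRR_6w replicate 2 and -1.96 with limma voom. A difference in Tnf was not detectable at this depth.

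Tnfrsf1b had the smallest p of the members at 6 weeks. Tnfrsf1b (ENSMUSG00000028599, chr4:145213463-145246870, minus strand) stood at 22.3, 22.1, 13.1 and 26.5 CPM in Control_6w and at 30.5, 38.9, 45.4 and 58.7 CPM in IRR_6w. Every irradiated heart was above every control, and the lowest value belonged to Control_6w replicate 3, the heart with thymocyte transcripts. The log2 fold change was 1.05 (SE 0.262, 2.06-fold) with an edgeR adjusted p of 0.124. DESeq2 gave 1.06 with an adjusted p of 0.00842, limma voom 0.88 with 0.0352, and library totals as the scaling 1.32 with 0.0529. Leaving out any single heart kept the log2 fold change between 0.86 and 1.18. Without both hearts that held thymus or lung transcripts it was 1.02, and without the 3 hearts with many genes at 0 counts it was 0.73 (adjusted p = 0.661 in edgeR), with 2 irradiated hearts left.

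At 1 day, Tnfrsf1b measured 17.0, 15.1 and 20.2 CPM in Control_1d and 23.8, 27.1 and 21.8 CPM in IRR_1d. All 3 irradiated hearts were above all 3 controls, but the step from 20.2 to 21.8 CPM between the nearest hearts was small. It was the only member with such a separation upwards, 1 of 10, where 6.51% of all genes separated in this direction. Its log2 fold change was 0.48 (SE 0.301, adjusted p = 1 in edgeR). The difference between the effects at 6 weeks and 1 day was 0.57 (SE 0.397, adjusted p = 0.990 in edgeR).

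Sums of macrophage markers are given beside these values. Control_1d hearts held a summed 297 to 381 CPM of 8 macrophage markers, and IRR_1d hearts held 372 to 485 CPM, which overlapped. At 6 weeks the sums were 167 to 395 CPM without irradiation and 536 to 850 CPM after it. All 8 markers had counts in every heart and a positive log2 fold change at 6 weeks, from 0.79 to 1.97, and none was called by edgeR (Adgre1, adjusted p = 0.0663, stood nearest). Control_6w replicate 3 was lowest for both the marker sum and Tnfrsf1b, and in IRR_1d the heart with the most Tnfrsf1b (replicate 2, 27.1 CPM) had the lowest sum, 372 CPM. In IRR_6w the highest sum, 850 CPM, was in replicate 2 with 38.9 CPM of Tnfrsf1b, and replicate 4 with 58.7 CPM had a sum of 787 CPM. IRR_6w replicate 1 was the lowest of its group in both, with a sum of 536 CPM and 30.5 CPM of Tnfrsf1b. Endothelial markers summed to 486 to 1513 CPM in Control_6w and 900 to 1551 CPM in IRR_6w, and these ranges overlapped. The overlap came from IRR_6w replicate 1 (900 CPM), the heart with lung and atrial transcripts. The other IRR_6w hearts held 1540 to 1551 CPM, narrowly above the highest control. The lowest control (486 CPM) was Control_6w replicate 3. The mitochondrial share of counts also separated the groups, at 22.3 to 30.3% in Control_6w and 10.4 to 22.2% in IRR_6w, and was lowest in IRR_6w replicate 4, the heart with the highest Tnfrsf1b and Relb values. What part these cell types or the mitochondrial share have in the separations of Tnfrsf1b, Relb, Tnfrsf1a and Icam1 was not tested.

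Tnfrsf1a (ENSMUSG00000030341, chr6:125349362-125362484, plus strand), the receptor gene used by most cell types, was also separated at 6 weeks. It measured 58.4, 66.1, 48.2 and 60.3 CPM in Control_6w and 94.1, 85.6, 73.8 and 74.0 CPM in IRR_6w. The nearest hearts of the groups were 66.1 and 73.8 CPM, so the gap was narrow. This gave a log2 fold change of 0.49 (SE 0.234, adjusted p = 0.581 in edgeR), which was 0.34 without both hearts with thymus or lung transcripts and 0.74 with library totals as the scaling. At 1 day the groups overlapped, with 47.4 to 71.9 CPM in Control_1d and 50.1 to 98.5 CPM in IRR_1d, a log2 fold change of 0.25 (SE 0.270) that was -0.0118 without IRR_1d replicate 3. The FPKM ratio of Tnfrsf1b to Tnfrsf1a was 0.242 ± 0.0481 (SD, n = 4) in Control_6w and 0.371 ± 0.138 (SD, n = 4) in IRR_6w, with overlapping hearts.

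Among the subunit genes, Relb, the partner in the non-canonical dimer, was the one that separated at 6 weeks. Relb (ENSMUSG00000002983, chr7:19606217-19629438, minus strand) measured 10.1, 14.1, 10.4 and 12.8 CPM in Control_6w and 17.6, 16.7, 19.1 and 22.6 CPM in IRR_6w. All 4 irradiated hearts were above all 4 controls. Its log2 fold change was 0.68 (SE 0.289, adjusted p = 0.506 in edgeR). At 1 day the order was the other way, with 16.8, 9.96 and 13.6 CPM in Control_1d against 9.98, 6.86 and 13.8 CPM in IRR_1d, a log2 fold change of -0.40 (SE 0.334) between overlapping groups that was -0.15 without IRR_1d replicate 2 and -0.67 without IRR_1d replicate 3. Relb was the 1 member of 10 whose irradiation effect differed between the times at an unadjusted p under 0.05, against 2.13% of all genes in the upward direction. That difference was 1.08 (SE 0.442, adjusted p = 0.990 in edgeR), edgeR called no gene (0%) for it, with 458 past the fold limits at an unadjusted p under 0.05, DESeq2 called 42 and limma voom 18, and the count of members at that p was 0 without any 1 of Control_1d replicates 1 or 3, IRR_1d replicates 1 or 2, Control_6w replicate 1 or IRR_6w replicate 4, and 2 without Control_6w replicate 3.

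Tnfrsf1b and Relb were the 2 members at an unadjusted p under 0.05 in IRR_6w vs. Control_6w, both higher, where 5.43% of all genes were. This count was 1 without Control_6w replicate 1, Control_6w replicate 3 or IRR_6w replicate 4, and 1 without the 3 hearts with many genes at 0 counts. Relb was the gene lost each time. At 6 weeks DESeq2 put 3 members and 6.3% of the 28748 genes to which it gave a p at an unadjusted p under 0.05, in either direction. These include genes of low count that edgeR and limma voom did not test, so the shares have unlike bases. Limma voom put 2 members and 20.7% of all genes there. In IRR_1d vs. Control_1d no member was at such a p in edgeR, against 2.9% of all genes in either direction. DESeq2 also put none there, and limma voom put 3 members and 10.4% of all genes there. The median log2 fold change of the 10 members was 0.00858 at 1 day and 0.16 at 6 weeks, beside 0.0618 and -0.0886 for all tested genes. Scaling by library totals raised the median of all genes at 6 weeks by 0.23.

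**Figure D2:**
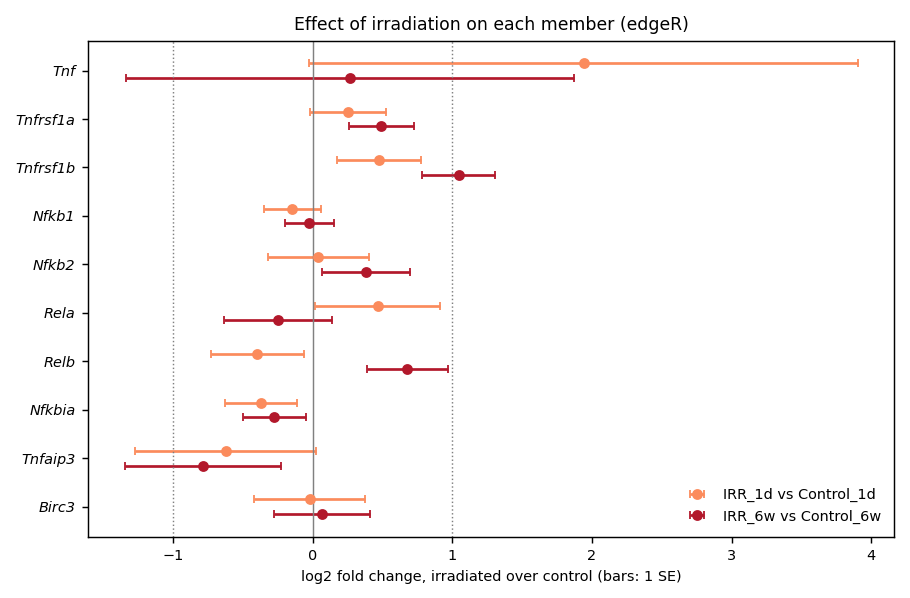
Log2 fold change of each member, irradiated over control, at 1 day and at 6 weeks (horizontal axis; points from edgeR, bars 1 SE, dotted lines at a fold change of 2 and 0.5). The Tnfrsf1b value at 6 weeks (1.05, SE 0.262) was the only member value beyond the upper dotted line apart from Tnf at 1 day, whose SE was 1.96.

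Rela (ENSMUSG00000024927, chr19:5637483-5648130, plus strand), the main activating subunit, varied widely within Control_1d and IRR_6w. It measured 13.0, 37.0 and 56.0 CPM in Control_1d and 48.5, 44.0 and 53.7 CPM in IRR_1d. At 6 weeks the controls held 42.4, 57.3, 49.8 and 52.8 CPM and the irradiated hearts 57.9, 55.3, 19.3 and 37.7 CPM. The lowest values belonged to Control_1d replicate 1 and IRR_6w replicate 3, the hearts in which 32.3 and 22.6% of weakly expressed genes had 0 counts. The log2 fold change was 0.47 (SE 0.449) at 1 day and -0.25 (SE 0.388) at 6 weeks, with edgeR adjusted p of 1 and 0.893. Without Control_1d replicate 1 alone the value at 1 day was 0.0687, without Control_1d replicate 3 it was 0.99, and without IRR_6w replicate 3 the value at 6 weeks was -0.0072. Without the 3 hearts with many genes at 0 counts, the values were 0.0674 and 0.17, so that the sign at 6 weeks reversed. The FPKM ratio of Relb to Rela, 0.164 ± 0.0119 (SD, n = 4) in Control_6w and 0.384 ± 0.228 (SD, n = 4) in IRR_6w, carries the same Rela values.

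Nfkb1 (ENSMUSG00000028163, chr3:135584655-135691547, minus strand), the gene of the usual RelA partner, had a small spread. It stood at 88.4, 74.3, 71.2 and 71.7 CPM in Control_6w and 71.7, 68.0, 75.6 and 85.1 CPM in IRR_6w. The groups overlapped, with 1 irradiated heart below every control and 1 control above every irradiated heart, and the log2 fold change was -0.0249 (95% interval -0.37 to 0.32), which turned to 0.22 with library totals as the scaling. At 1 day it measured 62.0, 55.7 and 62.4 CPM in Control_1d and 48.4, 53.8 and 60.4 CPM in IRR_1d, a log2 fold change of -0.15 (SE 0.205) that was -0.0625 without IRR_1d replicate 1 and -0.23 without IRR_1d replicate 3. Nfkb2 (ENSMUSG00000025225, chr19:46304737-46312090, plus strand), its non-canonical counterpart, measured 8.70, 19.8 and 26.7 CPM in Control_1d and 15.3 to 21.6 CPM in IRR_1d. Its lowest value was again that of Control_1d replicate 1. At 6 weeks Nfkb2 held 15.2 to 23.2 CPM in Control_6w and 18.6 to 31.3 CPM in IRR_6w, a log2 fold change of 0.38 (SE 0.314, adjusted p = 0.782 in edgeR) between overlapping groups that was 0.15 with limma voom and 0.62 with library totals as the scaling. In the GENCODE annotation of GRCm38, 18.1% of the exonic bases of Nfkb2 were shared with other genes, its coordinates differed from the deposited ones, and the strand setting of the counting was not stated. The other 9 members shared none.

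The feedback genes, which NF-kB itself induces, did not pass the test at 1 day. Nfkbia (ENSMUSG00000021025, chr12:55489410-55492647, minus strand), whose promoter is shown above with a match 20 to 29 bases before the start, measured 33.3, 42.4 and 42.3 CPM in Control_1d and 29.6, 29.1 and 32.4 CPM in IRR_1d. All 3 irradiated hearts were below all 3 controls, the only separation downwards among the members at 1 day, where 4.15% of all genes separated this way. The nearest hearts held 33.3 and 32.4 CPM. Its log2 fold change was -0.37 (SE 0.259, adjusted p = 1 in edgeR) and ran from -0.48 to -0.29 when single hearts were left out. At 6 weeks Nfkbia measured 32.9, 44.0, 56.4 and 53.6 CPM in Control_6w and 36.4, 51.3, 32.5 and 34.3 CPM in IRR_6w, a log2 fold change of -0.28 (SE 0.224, adjusted p = 0.777 in edgeR) between overlapping groups. It was -0.44 without IRR_6w replicate 2, -0.17 without Control_6w replicate 3, -0.0903 without the 3 hearts with many genes at 0 counts and -0.0681 with library totals as the scaling.

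Tnfaip3 (ENSMUSG00000019850, chr10:19000910-19015657, minus strand), whose product edits ubiquitin chains at the receptor complex, turned on a single heart at 6 weeks. Control_6w held 8.44, 7.34, 51.2 and 7.34 CPM and IRR_6w 10.7, 10.4, 10.99 and 11.1 CPM. The outlying value belonged to Control_6w replicate 3, the heart with 2266 CPM of thymocyte and 1113 CPM of T cell markers, and the other 3 controls were below all 4 irradiated hearts. With that heart the log2 fold change was -0.79 (SE 0.558, adjusted p = 0.748 in edgeR), and it was 0.49 without it. The part of thymus transcripts in this value was not tested. At 1 day Tnfaip3 measured 15.1, 14.5 and 9.31 CPM in Control_1d and 5.92, 8.92 and 10.4 CPM in IRR_1d. These groups overlapped by 1 heart each, with a log2 fold change of -0.63 (SE 0.647) that was -0.41 without IRR_1d replicate 1.

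Birc3 (ENSMUSG00000032000, chr9:7848699-7873186, minus strand), a ubiquitin ligase gene of the receptor complex, overlapped between groups throughout. It measured 6.83, 19.6 and 16.0 CPM in Control_1d and 11.1 to 15.4 CPM in IRR_1d, where the lowest control was once more replicate 1. At 6 weeks it held 11.9 to 25.9 CPM in Control_6w and 13.98 to 24.9 CPM in IRR_6w. Log2 fold changes were -0.0225 (95% interval -0.80 to 0.76) at 1 day and 0.0649 (95% interval -0.61 to 0.74) at 6 weeks. The value at 1 day turned to 0.15 with library totals as the scaling and to 0.30 without Control_1d replicate 2, and was -0.35 without Control_1d replicate 1. The value at 6 weeks was -0.12 without Control_6w replicate 2 and 0.26 without Control_6w replicate 3.

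**Figure D3:**
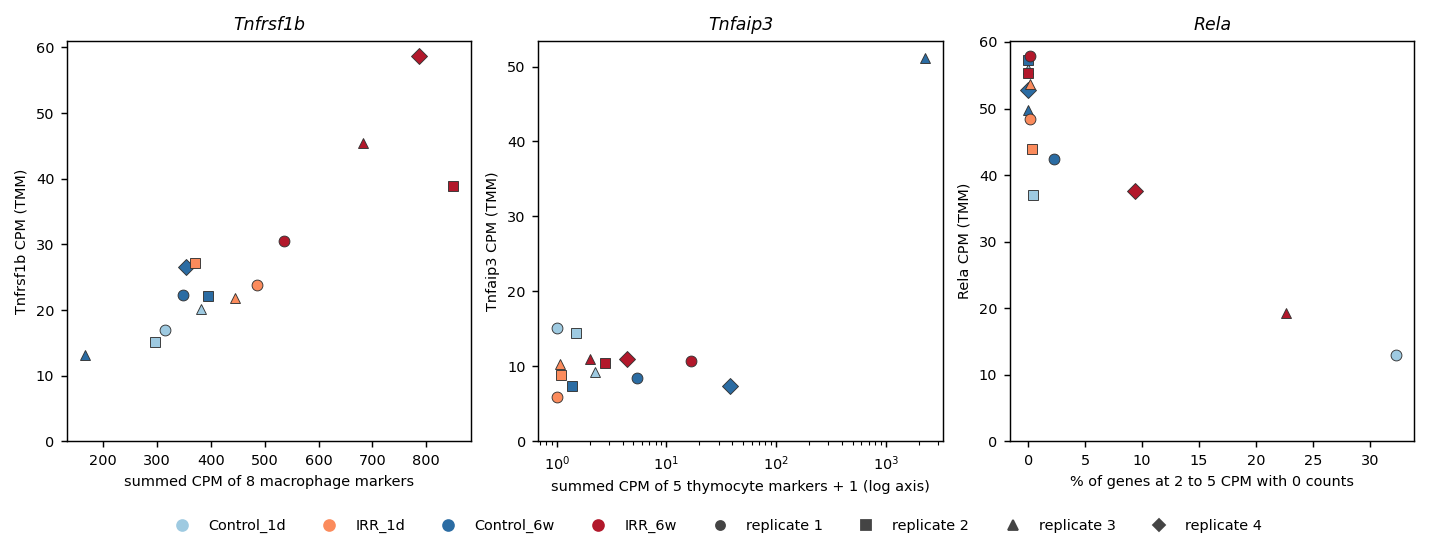
Each point is 1 heart, with groups by colour and replicates by shape. The panels set Tnfrsf1b CPM against the summed CPM of 8 macrophage markers, Tnfaip3 CPM against the summed CPM of 5 thymocyte markers plus 1 (log axis), and Rela CPM against the percentage of genes at 2 to 5 CPM that had 0 counts. The highest Tnfaip3 value (51.2 CPM) was in the heart with 2266 CPM of thymocyte markers, and the lowest Rela values (13.0 and 19.3 CPM) were in the hearts with 32.3 and 22.6% of such genes at 0 counts.

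Hearts taken at 6 weeks and at 1 day were compared within each arm. They came from different mice, so the age of the mice and the collection cannot be told apart from time. In Control_6w vs. Control_1d no member was called by edgeR, DESeq2 or limma voom, and edgeR called no gene at all (0%, with 601 genes past the fold limits at an unadjusted p under 0.05), DESeq2 28 and limma voom 58. No member was at an unadjusted p under 0.05, against 5.28% of genes in either direction, and Nfkb1 was the 1 member higher in every 6-week control than in every 1-day control, against 3.38% of genes. Its log2 fold change was 0.35 (SE 0.193, adjusted p = 0.902 in edgeR). In IRR_6w vs. IRR_1d edgeR called 6 genes (0.0374%) and no member, while DESeq2 called 148 and limma voom 333 genes, also without a member. Of the 10 members, 5 (Tnfrsf1b, Relb, Nfkb1, Nfkbia and Tnfaip3) were higher in all 4 later hearts than in all 3 earlier ones, against 5.44% of genes. The separation was a near tie for Nfkbia, whose nearest hearts held 32.40 and 32.47 CPM, and for Tnfaip3, with 10.36 and 10.41 CPM. The mitochondrial share (28.1 to 40.2% in IRR_1d, 10.4 to 22.2% in IRR_6w) and the macrophage sum (372 to 485 and 536 to 850 CPM) separated these groups too, and their part in the members' values was not tested.

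In that irradiated time comparison, 3 members were at an unadjusted p under 0.05, all higher at 6 weeks, against 4.2% of genes. They were Relb with a log2 fold change of 0.89 (SE 0.318, adjusted p = 0.700 in edgeR), Tnfrsf1b with 0.84 (SE 0.286, adjusted p = 0.636 in edgeR) and Nfkb1 with 0.47 (SE 0.193, adjusted p = 0.807 in edgeR). Tnfrsf1b was 0.52 without the 3 hearts with many genes at 0 counts, and Nfkb1 0.79 with library totals as the scaling. The count was 1 without IRR_1d replicate 2. It was 3 with DESeq2, against 4.33% of the genes to which DESeq2 gave a p, in either direction. With limma voom it was 3, against 18.6% of the genes tested. The median log2 fold change of the members was 0.40 here and 0.31 between the controls, beside -0.0179 and 0.12 for all genes. These comparisons share hearts with the irradiation comparisons, so their values are not independent of them.

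Of the 5 pathway lists, the NF-kB target genes had the highest median at 6 weeks. The lists were chosen with earlier results of these data known. Their medians and counts beside those of all genes are therefore descriptions and not tests. Of 21 listed target genes, 20 were tested, 15 had a positive log2 fold change, and their median was 0.59 beside -0.0886 for all genes. Of these, 1 was called by edgeR, Icam1, 4 by DESeq2 and 5 by limma voom, all higher, where the tools called 41 (0.256%), 344 and 509 genes over the whole table. In all, 6 were at an unadjusted p under 0.05 in edgeR, all higher, against 5.43% of all genes, and the count was 4 without the 3 hearts with many genes at 0 counts. At 1 day none was called by any of the 3 tools, the median was 0.27 beside 0.0618, and 1 gene was at an unadjusted p under 0.05, against 2.9% of all genes. Of the 20 tested targets, 5 were higher in every irradiated heart than in every control at 1 day and 4 at 6 weeks, against 6.51 and 4.07% of all genes.

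Icam1, the gene of an endothelial adhesion molecule that holds leukocytes, rose at 6 weeks. It measured 22.4, 18.5, 12.8 and 18.6 CPM in Control_6w and 36.3, 36.4, 71.5 and 70.0 CPM in IRR_6w, with no overlap. The log2 fold change was 1.57 (SE 0.288, 2.97-fold, adjusted p = 0.0434 in edgeR). DESeq2 gave an adjusted p of 9.27e-05 and limma voom 0.00271, but the call was lost in edgeR when only the 6-week groups were fitted (adjusted p = 0.102) and with the replicate block (adjusted p = 0.113). The edgeR adjusted p was between 0.0535 and 0.164 without any 1 of Control_1d replicates 2 or 3, IRR_1d replicates 1 or 2, the 4 Control_6w hearts or IRR_6w replicates 3 or 4, with a log2 fold change of 1.40 to 1.66. Without the 3 hearts with many genes at 0 counts the log2 fold change was 1.01 (adjusted p = 0.372 in edgeR). At 1 day Icam1 had a log2 fold change of 0.31 between overlapping groups, which was 0.15 without IRR_1d replicate 3. Of its exonic bases, 11.7% were shared with a gene on the other strand.

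Sele, the gene of E-selectin, on which leukocytes roll, stood next. It measured 0.0761, 1.38, 0.567 and 0.740 CPM in Control_6w and 5.27, 4.99, 9.85 and 9.39 CPM in IRR_6w, with a log2 fold change of 3.40 (SE 0.741, adjusted p = 0.0750 in edgeR). Of the alternative settings, 3 called Sele and 20 did not. The irradiated hearts were all above the controls, as in 4 of the 20 targets and 4.07% of all genes. The remaining 4 genes at an unadjusted p under 0.05 were singled out after their values were seen, and none was called by edgeR. The chemokine gene Ccl2 measured 11.3, 4.59, 1.98 and 4.85 CPM in Control_6w and 9.51, 22.7, 42.9 and 38.6 CPM in IRR_6w, a log2 fold change of 2.33 (SE 0.668, adjusted p = 0.196) that was 1.51 without the 3 hearts with many genes at 0 counts. The chemokine gene Cxcl10 measured 1.29, 0.688, 7.03 and 0.673 CPM in Control_6w and 3.72, 19.5, 30.3 and 50.1 CPM in IRR_6w, a log2 fold change of 3.40 (SE 1.07, adjusted p = 0.272). For Cxcl10 it was 4.86 without Control_6w replicate 3 and ran from 2.25, without the 3 hearts with many genes at 0 counts, to 5.23, without both hearts with thymus or lung transcripts. For both chemokine genes 3 irradiated hearts were above every control and IRR_6w replicate 1 was not. The cytokine gene Il6 held 0, 4, 1 and 1 raw counts in Control_6w and 7, 13, 44 and 45 in IRR_6w, and Ptgs2, the gene of an inducible prostaglandin synthase, held 1.91 to 8.59 CPM and 4.33 to 18.7 CPM. In all of these genes except Ptgs2, IRR_6w replicates 3 and 4 held the highest values of the group. These are the hearts in which 22.6 and 9.36% of weakly expressed genes had 0 counts, and what part that has in these values was not tested.

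**Figure D4:**
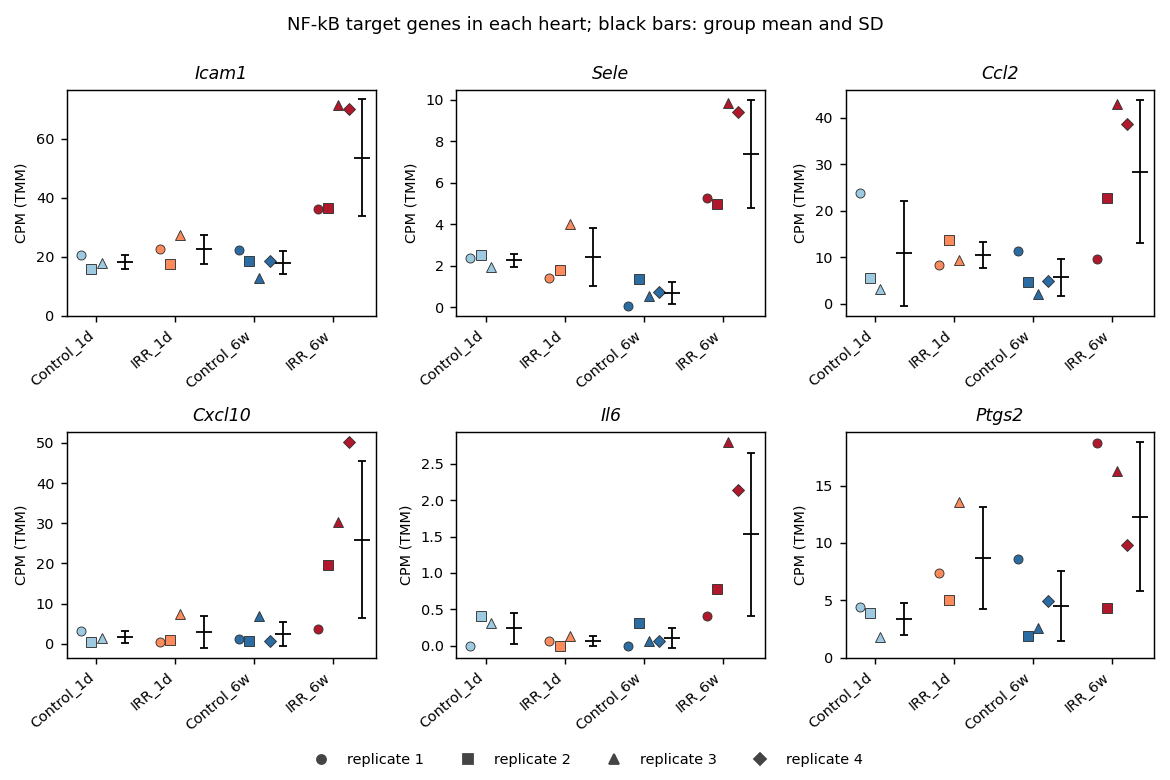
CPM with TMM scaling (vertical axes) of 6 NF-kB target genes in every heart, by group. Points are mice, shapes give the replicate number, and black bars give the group mean and 1 SD. Icam1 ran from 12.8 to 22.4 CPM in Control_6w and from 36.3 to 71.5 CPM in IRR_6w.

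Of 19 genes for TNF release and the receptor complex, none was called by edgeR, DESeq2 or limma voom in either irradiation comparison and none was at an unadjusted p under 0.05 in edgeR, with medians of 0.21 at 1 day and 0.0920 at 6 weeks. The genes of smallest p were Timp3, an inhibitor of the protease that sheds TNF (0.70, SE 0.387), and Rbck1 of the linear ubiquitin ligase (0.53, SE 0.350) at 1 day, and Cflar (0.54, SE 0.292) and Casp8 (0.57, SE 0.374), which set whether the receptor complex leads to cell death, at 6 weeks. Single hearts moved each of them: Timp3 was 0.24 without IRR_1d replicate 3, Rbck1 0.32 without Control_1d replicate 1 and 0.85 without Control_1d replicate 3, Cflar 0.35 without IRR_6w replicate 4, and Casp8 0.34 without Control_6w replicate 2 and 0.86 without Control_6w replicate 3. Without the 3 hearts with many genes at 0 counts, Cflar was 0.0644 and Casp8 0.16, and without both hearts with thymus or lung transcripts Casp8 was 1.03. Among 13 tested genes of the IkB kinase and the non-canonical arm, none was called by these tools in either irradiation comparison, and the medians were -0.31 and 0.29. At 6 weeks 2 were higher at an unadjusted p under 0.05, against 5.43% of all genes, both of them receptor genes that feed this arm. Cd40 had a log2 fold change of 1.94 (SE 0.664, adjusted p = 0.338 in edgeR), which was 0.83 without the 3 hearts with many genes at 0 counts. Tnfrsf11a had 1.19 (SE 0.548, adjusted p = 0.557 in edgeR), the second resting on IRR_6w replicate 3 at 17.3 CPM, without which it was 0.42. At 1 day 1 gene of this list was at an unadjusted p under 0.05, Tnfsf11, against 2.9% of all genes in either direction. It was lower after irradiation, which rested mostly on the 62 raw counts of Control_1d replicate 1. In that heart 32.3% of weakly expressed genes had 0 counts, and no value without it is given. The genes of smallest p at that time were Tnfsf11, with raw counts of 62, 3 and 0 in Control_1d and 0 in all 3 IRR_1d hearts, and Tnfsf13b, with 1.22 (SE 1.07), which was 0.56 without IRR_1d replicate 3 and 1.87 without Control_1d replicate 3.

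Of the 6 other Rel and IkB genes, none was called by edgeR or DESeq2 in either irradiation comparison, while limma voom called Nfkbie and Nfkbiz at 6 weeks, both higher. Over all genes limma voom called 509 (3.17%) at that time. In edgeR Nfkbiz, an atypical nuclear IkB gene, had a log2 fold change of 0.81 (SE 0.427, adjusted p = 0.631) at 6 weeks, and 1.32 without Control_6w replicate 3. Nfkbie, a further inhibitor gene, had 0.95 (SE 0.556), which was 1.92 without Control_6w replicate 3, 2.03 without both hearts with thymus or lung transcripts and 0.59 without the 3 hearts with many genes at 0 counts. At 1 day Rel, the subunit gene best known from lymphocytes, had -0.67 (SE 0.304, adjusted p = 1 in edgeR) and was the 1 gene of its list at an unadjusted p under 0.05, against 2.9% of all genes. It was -0.37 without Control_1d replicate 1. Nfkbib had 0.25 (SE 0.405), which reversed to -0.14 without Control_1d replicate 1. The 10 feedback regulators outside the members had medians of -0.13 and 0.0544 and none at an unadjusted p under 0.05 in edgeR or called by it or by DESeq2. Limma voom called Traf1 of this list at 6 weeks, higher, against 3.17% of all genes. Those of smallest p were the deubiquitinase gene Cyld (-0.36, SE 0.291, and -0.0486 without Control_1d replicate 1) and the ubiquitin ligase gene Itch (-0.33, SE 0.332, reversed to 0.0903 without Control_1d replicate 1) at 1 day, and the deubiquitinase gene Otulin (-0.60, SE 0.303, -0.39 without IRR_6w replicate 3 and -0.30 without the 3 hearts with many genes at 0 counts) and N4bp1 (0.36, SE 0.210, 0.22 with limma voom and 0.63 with library totals as the scaling) at 6 weeks. Among the targets at 1 day, the survival gene Bcl2l1 (0.87, SE 0.342, adjusted p = 1 in edgeR) and Ptgs2 (1.35, SE 0.680) had the smallest p, and both were among the 5 targets separated upwards. Ptgs2 was 0.88 without IRR_1d replicate 3.

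**Figure D5:**
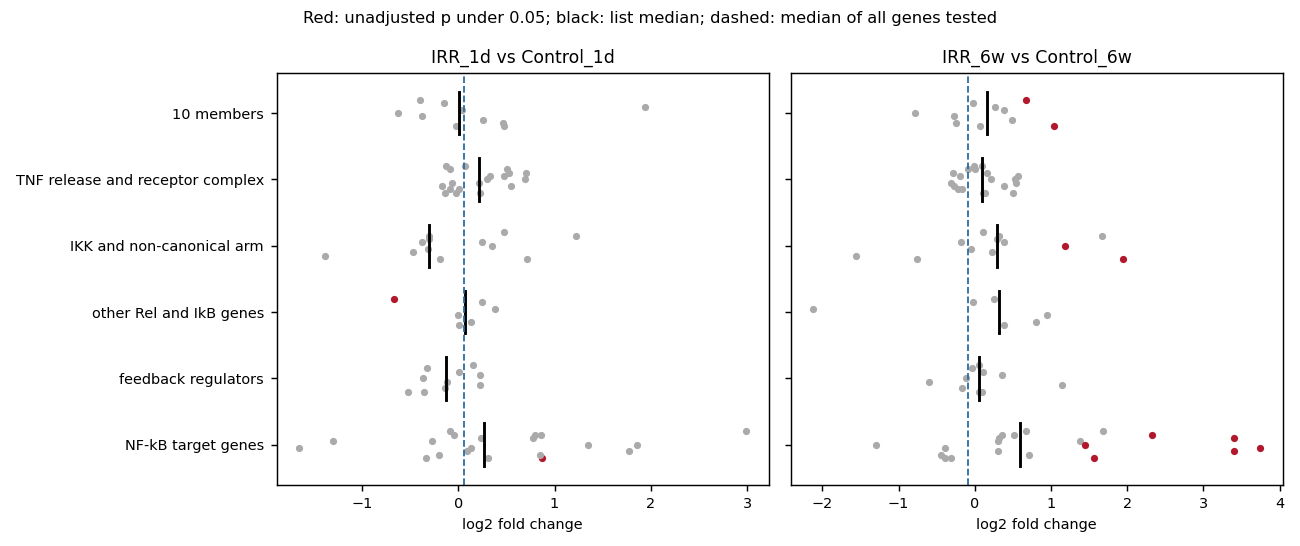
Log2 fold changes (horizontal axes) of the 10 members and of 5 pathway lists at 1 day and 6 weeks. Each point is a tested gene, red where its unadjusted p in edgeR was under 0.05, black bars are list medians over the tested genes, and the dashed line is the median of all tested genes. Tnfsf11 is not drawn, since all IRR_1d hearts held 0 counts. The target genes reached the highest values at 6 weeks, with a median of 0.59.

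The genes most like 4 of the members were found by Pearson r of log2 CPM over the 14 hearts after each group was centred on its mean, a description without a test in which all points share library depth and quality. For Tnfrsf1b they were Lama2 (r = 0.948), Prkab2 (0.944) and 4931406P16Rik (0.937). For Rela they were Pdap1 (0.979), Gm10297 (0.973) and Zfp628 (0.970), and for Nfkbia Stab2 (0.941), Stard6 (0.919) and Btf3 (0.915). For Birc3 they were Sytl2 (0.953), Fam216a (0.943) and Snhg5 (0.936). Among pairs of members, the correlations farthest below 0 were those of Tnf with Nfkb1 (-0.844) and of Tnfrsf1b with Tnfaip3 (-0.683). Tnf was near the detection limit, and its 4 hearts with 0 counts were those named above for many genes at 0 counts. Of these, Control_6w replicate 1 and IRR_6w replicate 4 held the highest Nfkb1 of their groups (88.4 and 85.1 CPM). Control_1d replicate 1 and IRR_6w replicate 3 did not. What part this has in the first correlation was not tested. The second includes the Control_6w heart with the lowest Tnfrsf1b and the highest Tnfaip3 value. The highest correlation was that of Tnfrsf1a with Relb (0.782).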

How the data were processed

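Bulk RNA of cardiac tissue was sequenced from 14 mice in 4 groups. The submitters' processing notes name FastQC 0.11.8, Trim Galore 0.6.1, STAR 2.5.0a and build mm10, and the study's methods name HTSeq for counting. The authors deposited raw counts of whole numbers for 54532 genes, with symbols, coordinates and lengths. Strand setting, counting mode and annotation release were not given in the sources used here.

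Genes were fitted together in edgeR 4.0.16 (R 4.3.3) with filterByExpr, which kept 16034, TMM scaling, 1 model of the 4 groups and the quasi-likelihood test, adjusted by Benjamini-Hochberg over all tested genes. Genes with an adjusted p under 0.05 and a fold change above 2 or below 0.5 were called. The comparisons were irradiated against control at each time, 6 weeks against 1 day in each arm, and the change in the irradiation effect. DESeq2 1.42.0, limma 3.58.1 (voom), other scalings, no filter, pairwise fits, a replicate block and left-out hearts were alternatives. CPM used TMM-scaled totals. The script was tested on simulated data.

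Named genes were all 10 members and, from 5 pathway lists, every gene called by edgeR and the 2 of smallest p per list and irradiation comparison. Outside this rule, Ccl2, Cxcl10 and Il6 were named after their values were seen, and Traf1 because limma voom called it. Members and lists were chosen with earlier results of these data known. The 95% intervals are 1.96 SE. Counting limits cover counting error only. Exon overlaps came from GENCODE, and promoters (250 bases before to 50 after a start) from RefSeq GRCm38.p6. Besides Nfkb2 and Icam1, exonic bases were shared with other genes for Timp3 (21.3%), Nfkbib (16.4%) and Cxcl10 (5.91%).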

Additional observations from a re-analysis of the deposited data

Results flagged for a closer look

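Of 90 groups of 4 hearts examined, 17 held a heart whose distance to the nearest other exceeded Dixon's 95% value for 4 values, where chance gives about 1 in 20. In Control_6w replicate 3 this held for Tnfaip3 at 51.2 CPM, against 8.44 in the nearest other heart, Cxcl10 at 7.03, Nfkbie at 15.1 and Tnfsf11 at 1.47 CPM. The same heart stood apart in its marker sums for endothelium (486 CPM, the lowest), T cells (1113 CPM), thymocytes (2266 CPM), lung epithelium (24.8 CPM) and brown fat (688 CPM). IRR_6w replicate 1 stood apart in endothelial markers (899.5 CPM, the lowest) and in thymocyte (15.9 CPM), B cell (51.1 CPM), lung epithelium (355 CPM), atrial (2812 CPM) and brown fat markers (939 CPM). Tnfrsf11a reached 17.3 CPM in IRR_6w replicate 3, against 4.69 in the nearest other heart, and Tnfsf11 reached 3.84 CPM in IRR_6w replicate 4.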

How the results depend on the processing

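Across the settings that left out no single heart, the log2 fold changes of Tnfrsf1b, Relb, Tnfrsf1a and Nfkb2 at 6 weeks and of Nfkbia at both times kept their sign. The count of genes called moved most, and the cause was not tested. At 1 day (4 genes) it was 358 at an unadjusted p with the fold limit kept, 33 with DESeq2, 41 with limma voom, 2 with library totals, 8 without a filter, 0 in the pairwise fit, 14 without both hearts with thymus or lung transcripts and 0 without the 3 hearts with many genes at 0 counts. At 6 weeks (41 genes) these counts were 871, 344, 509, 83, 138, 13, 133 and 0. Between the controls (0 genes) they were 601 at an unadjusted p with the fold limit, 28 with DESeq2, 58 with limma voom and 6 without a filter. Between the irradiated groups (6 genes) they were 617, 148, 333 and 26, and 132 without both hearts with thymus or lung transcripts. For the change in effect (0 genes) they were 458, 42, 18, 9 and 14. The pairwise fit was not run for it, since it needs all groups.

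The count of members at an unadjusted p under 0.05 was 3 with limma voom at 1 day. At 6 weeks it was 0 by adjusted p and fold, and 1 without a filter, without both thymus or lung hearts or without the 3 hearts. It was 3 with DESeq2, against 6.3% of the genes to which DESeq2 gave a p, and 3 with library totals or the pairwise fit. Between the controls the count was 3 with limma voom, against 15.1% of all genes, and 1 without both thymus or lung hearts. Between the irradiated groups it was 0 by adjusted p and fold and 5 with library totals. For the change in effect it was 0 by adjusted p and fold, 2 with limma voom, against 17.6% of all genes, 0 without a filter and 2 without both thymus or lung hearts. For this count, shares of all genes are given only for edgeR, DESeq2 and limma voom, not for the other settings. Chosen after seeing the data, the count of members separated upwards without the 3 hearts was 5 at 6 weeks (8.79% of genes) and 8 between the irradiated groups (12.5%), and without both thymus or lung hearts 4 (9.80%) and 5 (9.01%). Fewer hearts per group make separation more frequent for all genes.

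Signs reversed as follows. At 1 day, Nfkb2 was -0.10 with limma voom and -0.30 without the 3 hearts, Birc3 0.15 with library totals, Nfkbib -0.14 and Itch 0.0888 without the 3 hearts. At 6 weeks, Tnf was -1.96 with limma voom, Nfkb1 0.0495 with limma voom and 0.22 with library totals, Rela 0.17 without the 3 hearts, and Tnfaip3 0.48 with limma voom and 0.49 without both thymus or lung hearts.

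With single hearts left out, genes called ran from 0 to 11 at 1 day, 0 to 98 at 6 weeks, 0 to 0 between controls, 3 to 36 between irradiated groups and 0 to 3 for the change in effect. Members at an unadjusted p under 0.05 ran from 0 to 0, 1 to 3, 0 to 1, 1 to 3 and 0 to 2. Log2 fold changes that crossed 0 ran at 1 day from -0.49 to 2.76 (Tnf), -0.0118 to 0.49 (Tnfrsf1a), -0.30 to 0.44 (Nfkb2), -0.35 to 0.30 (Birc3), -0.14 to 0.53 (Nfkbib) and -0.52 to 0.0903 (Itch). At 6 weeks they ran from -0.72 to 0.71 (Tnf), -0.0906 to 0.0294 (Nfkb1), -1.09 to 0.49 (Tnfaip3) and -0.12 to 0.26 (Birc3).

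Groups share replicate numbers that the labels tie to nothing. Deviations of same-numbered hearts correlated from -0.364 to 0.371, and at most 1 heart per pair of groups matched its own number best. With the replicate block, 1 gene was called at 1 day and 15 at 6 weeks, 1 member was at an unadjusted p under 0.05 at 6 weeks and 0 for the change in effect, Icam1 had an adjusted p of 0.113, and Tnf at 6 weeks was -0.41.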
